A study of Mus musculus with 10 samples.

Results

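Splicing factor genes of 4T1 cells are described here in collagen gels of high density (HD, 3.5 mg/mL, 5 arrays) against low density (LD, 2 mg/mL, 5 arrays). The genes were chosen by name: array rows annotated with exactly 1 symbol that begins with Snrp, Lsm, Sf3a, Sf3b or Srsf, without pseudogenes, and for each gene the row with the highest mean signal over the 10 arrays. The rule found 41 genes among 30142 with a row of their own. 4T1 is a mouse mammary carcinoma line, and both groups were the same line without a transgene or added agent named in the labels, seeded at 50000 cells and cultured for 5 days in RPMI medium with 10% serum. Total RNA of each gel sample went on 1 Affymetrix MTA 1.0 array, and values are log2 signals.

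Splicing removes introns from pre-mRNA. It is done by the spliceosome, which is built from small nuclear ribonucleoproteins (snRNPs), each a small nuclear RNA wrapped in proteins. Sm proteins form a ring on the U1, U2, U4 and U5 RNAs, and Lsm proteins form a like ring on U6 RNA; a second Lsm ring, with Lsm1 in place of Lsm8, binds mRNA that is about to be degraded. SF3A and SF3B are the parts of the U2 snRNP that hold the branch point of the intron. SR proteins, named for their arginine and serine repeats, bind exons and help to choose splice sites, and their activity is set by phosphorylation.

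By role the 41 genes were 5 of the Sm core, 3 specific to the U1 or U2 snRNP, 7 of the Lsm rings, 5 other Lsm genes, 9 of SF3A and SF3B and 10 SR protein genes. The remaining pair, Lsmem1 and Lsmem2, match the rule by spelling only, since they encode leucine-rich membrane proteins and not Lsm proteins. A gene was tested if its mean signal was above 5.24, the median over all rows. This left 39 genes; Lsmem1 and the SR gene Srsf12 lay below it. Several genes (Snrpa, Snrpd1, Snrpd2, Snrpn, Lsm8 and Lsmd1) share their row with another symbol and fall outside the rule.

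Epithelial markers were present, with 8 of 8 above the signal floor and group means of 7.74 to 12.2 in HD and 7.63 to 12.3 in LD. Of the leukocyte markers Ptprc lay below the floor (3.14 in HD and 3.09 in LD). Cd68 was above the floor and lower in HD (7.83 in HD and 8.57 in LD). Cd3e was just above the floor and called higher in HD (5.45 in HD and 5.29 in LD). The medians of the negative control rows were 5.42 in HD and 5.67 in LD, at or above Cd3e, which limits that call. Itgam, Adgre1, Lyz2 and Ptprc, all below the floor, had slightly higher means in HD, so Cd68 alone carried the lower summed signal. The summed linear signal of the 6 leukocyte markers was 319.8 to 387.8 in HD and 459.2 to 510.2 in LD, and that of the 8 epithelial markers 12458 to 13354 in HD and 14766 to 14949 in LD; no endothelial marker (0 of 4) and 4 of 7 fibroblast markers passed the floor. In LD the fibroblast markers Pdgfrb (5.44) and Col3a1 (5.65) were below the negative control median, and Col1a1 (6.71) and Col1a2 (5.93) above it. Passing the floor is therefore not the same as detection. Whether the marker shifts have a part in the results below was not tested. Among the 39 genes, HD replicate 2 was the highest HD array for 16 and the lowest for 11, and LD replicate 5 was the highest LD array for 23. Some results that rest on these arrays are also given without them. The labels do not state whether the arrays of 1 group stem from independent cultures. The p-values therefore reflect array-to-array spread that could be purely technical.

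Genes of the Sm and Lsm rings and of small SF3B subunits were higher in HD, while SR protein genes went in both directions; after scaling on control rows Snrpd3 of the Sm ring was no longer called. With limma and Benjamini-Hochberg adjustment over all 17800 genes tested, 28 of the 39 genes were higher in HD (71.8%), against 31.4% of all genes, and 2 were lower, against 19.5% of all genes (50.9% of all genes were called in either direction). After scaling on the array's control rows the gap to all genes was small, with 21 of 39 higher (53.8%, against 49.4% of all genes) and 6 lower (15.4%, against 19.1%), and medians of 0.17 for these genes and 0.13 for all genes. By its arithmetic that scaling lowers HD minus LD in bright rows and raises it in dim rows. These genes were brighter, with a median level of 8.93 in HD against 7.53 for all genes. The smaller gap is therefore not free of signal level. After quantile normalization 69.2% were higher, against 42.9% of all genes. As deposited, their median log2 difference, HD minus LD, was 0.22, and that of all genes tested 0.055. The counts were 27 higher and 2 lower without HD replicate 2, and 28 higher and 1 lower without LD replicate 5. The differences were small, from -0.34 to 0.59 on the log2 scale, and 1 gene passed a 1.5-fold change, where 2.34% of all genes did. The 5 HD arrays lay wholly above the 5 LD arrays for 25 of the 39 genes (21.6% of all genes) and wholly below for 2 (15.1% of all genes). In a bulk sample a change in the mix of cells and a change in RNA per cell cannot be told apart. Of all calls, 61.7% were higher as deposited and 72.1% both after quantile normalization and after scaling on control rows.

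**Figure D1:**
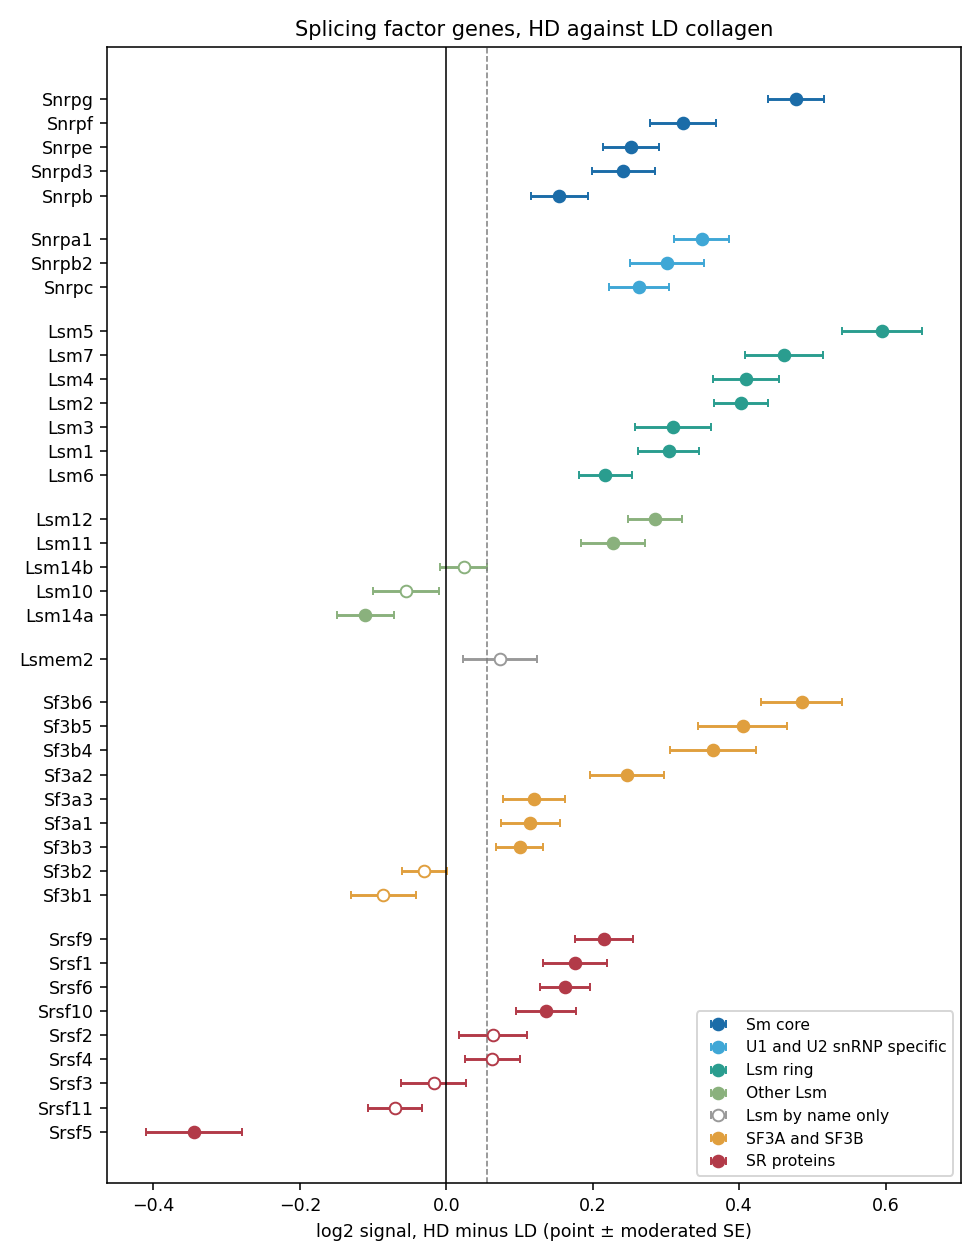
Difference in log2 signal, HD minus LD, for the 39 tested genes (points, with moderated SE as bars), grouped by role from top to bottom; filled points passed limma at an adjusted p under 0.05, the solid line is 0 and the dashed line the median of all genes tested (0.055). All Sm core, U1 and U2 specific and Lsm ring genes lie to the right of the dashed line, and the SR protein genes run from -0.34 (Srsf5) to 0.22 (Srsf9).

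To show the DNA upstream of the genes that moved most, the stretch of 250 bases before the annotated start is shown for the genes of the Sm core, the Lsm ring and SF3 with the largest rise, and for the SR protein genes with the largest rise and the largest fall. Sequences are RefSeq's for the mouse build GRCm38.p6, 5′ to 3′ on the gene's strand, and 35 of the 41 genes had an entry. Capitals mark matches, on either strand, to the ETS motif CCGGAAG, the NF-Y box CCAAT and the NRF1 motif. The Srsf9 sequence shows 1 form of the NRF1 motif, which leaves 1 base free, so matches in other genes can differ from it. The motifs were chosen with results of these data known.
Snrpg, chr6:86371290-86371539, plus strand: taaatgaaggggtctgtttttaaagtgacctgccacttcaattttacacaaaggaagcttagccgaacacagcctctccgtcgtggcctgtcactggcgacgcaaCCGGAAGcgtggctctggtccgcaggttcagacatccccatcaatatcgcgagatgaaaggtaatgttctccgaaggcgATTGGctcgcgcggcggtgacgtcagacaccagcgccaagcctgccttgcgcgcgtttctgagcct
Lsm5, chr6:56704700-56704949, minus strand: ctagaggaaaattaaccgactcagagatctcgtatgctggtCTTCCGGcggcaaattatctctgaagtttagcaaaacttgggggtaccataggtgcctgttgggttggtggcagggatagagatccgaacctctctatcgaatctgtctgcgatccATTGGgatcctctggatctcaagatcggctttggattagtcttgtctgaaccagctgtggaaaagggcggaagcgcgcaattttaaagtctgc
Sf3b6, chr12:4817358-4817607, plus strand: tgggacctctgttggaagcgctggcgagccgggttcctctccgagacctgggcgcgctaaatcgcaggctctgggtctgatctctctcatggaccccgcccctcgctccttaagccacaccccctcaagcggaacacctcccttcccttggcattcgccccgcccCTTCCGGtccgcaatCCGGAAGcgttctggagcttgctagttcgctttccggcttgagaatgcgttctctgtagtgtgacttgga
Srsf9, chr5:115326927-115327176, plus strand: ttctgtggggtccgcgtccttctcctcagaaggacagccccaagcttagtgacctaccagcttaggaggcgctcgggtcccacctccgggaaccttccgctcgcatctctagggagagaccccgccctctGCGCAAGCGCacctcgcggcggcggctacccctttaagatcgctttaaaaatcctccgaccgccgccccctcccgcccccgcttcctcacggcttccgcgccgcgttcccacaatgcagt
Srsf5, chr12:80945249-80945498, plus strand: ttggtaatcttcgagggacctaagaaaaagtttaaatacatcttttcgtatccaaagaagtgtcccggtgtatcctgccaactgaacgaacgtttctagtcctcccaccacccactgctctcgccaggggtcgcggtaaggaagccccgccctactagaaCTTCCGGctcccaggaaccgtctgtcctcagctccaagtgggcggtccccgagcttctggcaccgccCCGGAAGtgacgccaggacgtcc

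Snrpg and Lsm5 each held 1 ETS and 1 CCAAT match, Sf3b6 and Srsf5 each held 2 ETS matches, and Srsf9 held 1 NRF1 match. The ETS motif was present in 16 of 41 windows of the genes (39.0%; some genes have several windows), against 12.0% of the windows of genes tested and 6.91% of all 32851 windows. It stood in 6 of 7 SF3A and SF3B genes with a window, 3 of 7 snRNP core genes, 3 of 10 SR protein genes and 1 of 5 Lsm ring genes. The NRF1 motif was in 9 of 41 windows (22.0%, against 6.97% of windows of genes tested and 3.74% of all). The CCAAT box was in 34.1% of the genes' windows, 34.5% of those of genes tested and 33.8% of all. The E-box CACGTG was in none of the 41 windows (7.85% of windows of genes tested and 6.02% of all), and the YY1 motif in 1 (2.44%, against 0.564% and 0.301%). No base was shared by matches to different motifs. Both the rising Sf3b6 and the falling Srsf5 carried the ETS letters. A match describes the letters only.

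All 5 Sm core genes were called higher in HD as deposited, where 31.4% of all genes were. The largest rise was then that of Snrpg, which encodes the SmG protein. Its log2 signal was 11.02, 11.09, 10.97, 10.95 and 11.02 in HD, against 10.56, 10.55, 10.58, 10.51 and 10.46 in LD. The groups did not overlap, and the fold was 1.39 (log2 difference 0.48 ± 0.0385 SE, limma adjusted p = 4.6e-07). After scaling on control rows Snrpg differed by 0.28, and Snrpf, at 0.42, had the largest rise of the Sm core. The row used for Snrpg carries an identifier of chromosome 17, whereas RefSeq places the gene on chromosome 6. A second Snrpg row, with an identifier of chromosome 6, had a mean of 8.04 ± 0.072 in HD and 7.60 ± 0.038 in LD (SD, n = 5 each) and differed by 0.44. Both rows thus moved in the same direction, and which one measures the gene was not tested.

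Snrpf, which encodes SmF, had a log2 signal of 7.40, 7.45, 7.49, 7.34 and 7.54 in HD, against 7.03, 7.18, 7.13, 7.11 and 7.15 in LD. Every HD array was above every LD array, and Snrpf rose 1.25-fold (0.32 ± 0.0444 SE, limma adjusted p = 4.2e-05). Snrpe (SmE) and Snrpd3 (SmD3) rose by 0.25 and 0.24 on the log2 scale. After scaling on control rows Snrpd3 differed by 0.08 and was no longer called (limma adjusted p = 0.20). The smallest rise as deposited was that of Snrpb, whose product SmB is part of the ring. It had 7.53, 7.61, 7.51, 7.50 and 7.43 in HD, against 7.33, 7.40, 7.33, 7.34 and 7.41 in LD. The lowest HD array was just above the highest LD array, and the log2 difference was 0.15 (limma adjusted p = 0.0046), against 0.24 after scaling on control rows.

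The 3 genes found by the rule that are specific to a U1 or U2 snRNP rose as well. Among all genes 31.4% were called higher. Of U1 only Snrpc is among the 3. The U1 genes Snrnp70 and Snrpa, outside the rule, were not called as deposited. Snrpa1 encodes the A′ protein of the U2 snRNP. Its signal was 8.69, 8.62, 8.71, 8.59 and 8.64 in HD, against 8.28, 8.29, 8.27, 8.26 and 8.39 in LD, a 1.27-fold rise (log2 0.35 ± 0.0381 SE, limma adjusted p = 6.0e-06). Only LD replicate 5 came near the HD arrays, and without it Snrpa1 rose by 0.37. Snrpb2 encodes the B″ protein, its partner on U2 RNA. It had 6.98, 6.90, 6.86, 6.80 and 7.01 in HD, against 6.57, 6.72, 6.60, 6.51 and 6.66 in LD, without overlap, and rose by 0.30 (limma adjusted p = 0.00022). Snrpc encodes the C protein of U1, which helps U1 to pair with the 5′ splice site. It had 8.03, 8.18, 8.08, 8.04 and 8.09 in HD, against 7.84, 7.76, 7.84, 7.76 and 7.90 in LD, and rose by 0.26 (limma adjusted p = 0.00013).

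All 7 genes of the Lsm rings were called higher, where 31.4% of all genes were. Their median log2 difference was 0.40, against 0.055 for all genes. Lsm5 had the largest rise of any gene of the set. Its signal was 6.27, 6.29, 6.10, 6.19 and 6.41 in HD, against 5.53, 5.71, 5.69, 5.69 and 5.67 in LD. The groups lay far apart relative to their spread, and the fold was 1.51 (log2 0.59 ± 0.0551 SE, limma adjusted p = 1.5e-06). The LD mean of Lsm5 (5.66) was at the median of the negative control rows in LD (5.67), which limits this fold; in HD its mean was 6.25 and that median 5.42. Lsm7 had 9.58, 9.83, 9.59, 9.53 and 9.58 in HD, against 9.09, 9.15, 9.16, 9.16 and 9.24 in LD. HD replicate 2 was the highest, and the log2 difference was 0.46 with it and 0.41 without it (limma adjusted p = 1.0e-05 and 4.8e-06). A dimmer row of Lsm7 differed by 0.37.

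Lsm4 and Lsm2 rose 1.33-fold and 1.32-fold, and Lsm3 rose by 0.31 on the log2 scale. Lsm1, the subunit found in the cytoplasmic decay ring only, rose by 0.30 (1.23-fold), at 7.86, 7.91, 7.75, 7.80 and 7.88 in HD and 7.50, 7.50, 7.55, 7.49 and 7.63 in LD. The smallest rise of the ring genes was that of Lsm6. It had 8.56, 8.56, 8.55, 8.55 and 8.54 in HD, against 8.28, 8.30, 8.33, 8.31 and 8.44 in LD. The HD arrays were nearly equal, LD replicate 5 came closest to them, and Lsm6 rose by 0.22 (limma adjusted p = 0.00023). Without LD replicate 5 it rose by 0.24. All 7 calls held under each of the 19 alternative settings that tested them; Lsm5 was not tested under the stricter signal floor.

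Lsm genes outside the rings went in both directions, with 2 higher, 1 lower and 2 not called. The shares of 40% higher and 20% lower were near the 31.4% and 19.5% of all genes. Lsm12, which encodes an Lsm-domain protein outside the rings, had 10.65, 10.69, 10.59, 10.63 and 10.67 in HD, against 10.36, 10.41, 10.37, 10.27 and 10.39 in LD. It rose by 0.28 (1.22-fold, limma adjusted p = 2.4e-05), and by 0.11 after scaling on control rows (limma adjusted p = 0.034). Lsm11, a subunit of the U7 snRNP that processes histone mRNA, had 7.56, 7.68, 7.50, 7.57 and 7.46 in HD, against 7.32, 7.27, 7.38, 7.35 and 7.31 in LD, and rose by 0.23 (limma adjusted p = 0.00065). Its partner in U7, Lsm10, differed by -0.06 and did not pass the test (limma adjusted p = 0.32).

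Lsm14a, a protein of cytoplasmic P bodies that represses translation, had 9.49, 9.31, 9.45, 9.44 and 9.46 in HD, against 9.55, 9.56, 9.52, 9.50 and 9.57 in LD. All HD arrays were below all LD arrays, by 0.11 on the log2 scale (limma adjusted p = 0.029), and the difference was -0.20 after scaling on control rows. This call was lost without LD replicate 1, 2 or 5 and without the filter on dim rows (limma adjusted p = 0.057, 0.058, 0.063 and 0.051). The related Lsm14b, at 8.40, 8.36, 8.40, 8.42 and 8.39 in HD and 8.41, 8.35, 8.34, 8.36 and 8.40 in LD, overlapped fully and differed by 0.02. Lsmem2, the membrane protein gene, differed by 0.07 and was not called (limma adjusted p = 0.24), although it was called higher after quantile normalization and after scaling on control rows (0.15 and 0.26, limma adjusted p = 0.033 and 0.012).

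**Figure D2:**
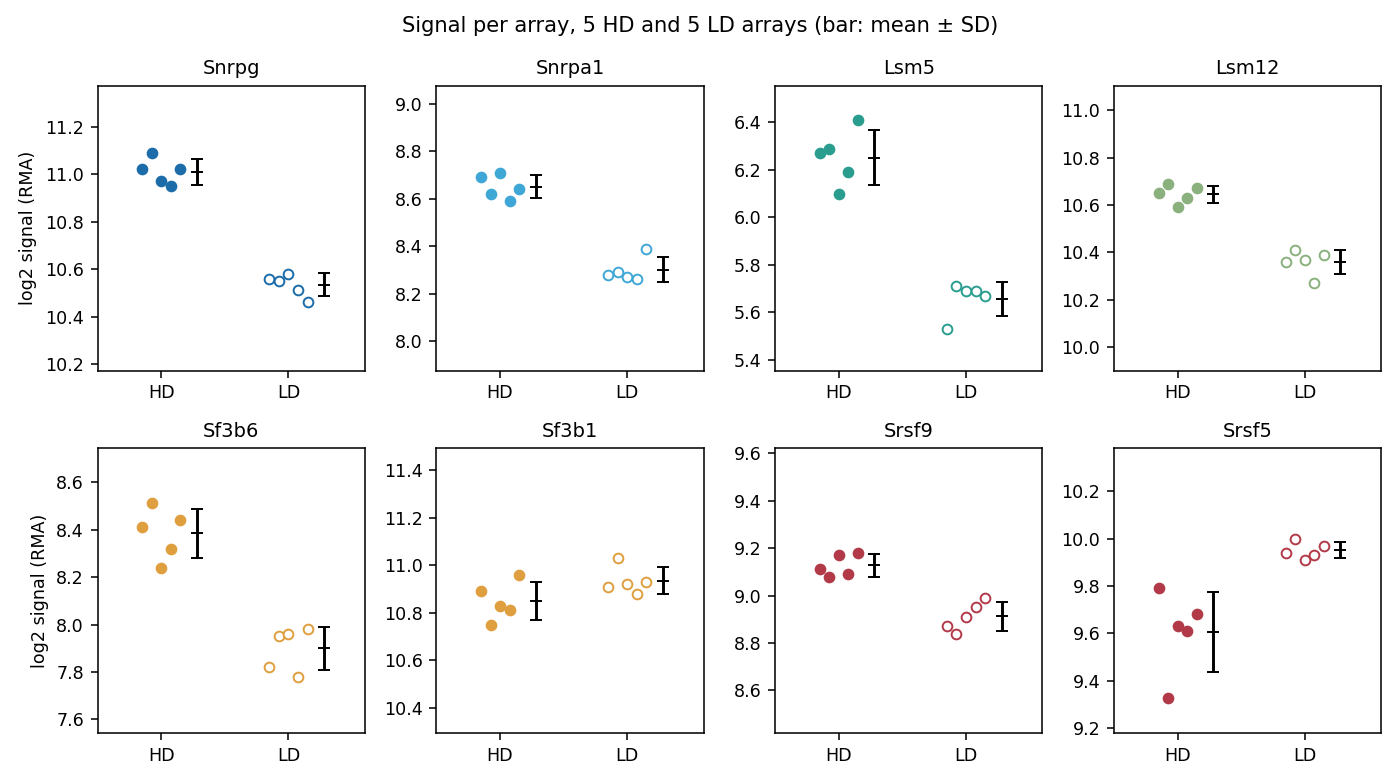
Log2 signal of 8 genes in each array, with HD (filled) left of LD (open) in each panel, every panel spanning the same height; bars beside the points are the mean ± SD of 5 arrays. Snrpg, Snrpa1, Lsm5, Lsm12, Sf3b6 and Srsf9 lie higher in HD without overlap, Sf3b1 overlaps, and Srsf5 lies lower in HD, lowest in HD replicate 2 (9.33).

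Among SF3A and SF3B genes 7 of 9 were called higher (77.8%, against 31.4% of all genes) and 0 lower, and the median log2 difference was 0.12. After scaling on control rows 3 were higher and 2 lower, where 49.4% of all genes were higher and 19.1% lower. SF3 rows were brighter than all genes (median level 9.20 in HD against 7.53), which enters these counts. The 3 largest rises as deposited were in SF3B subunits. Sf3b6 encodes the subunit that contacts the branch point adenosine. It had 8.41, 8.51, 8.24, 8.32 and 8.44 in HD, against 7.82, 7.95, 7.96, 7.78 and 7.98 in LD, and rose 1.40-fold without overlap (log2 0.49 ± 0.0553 SE, limma adjusted p = 8.4e-06). Sf3b5, another small subunit, had 7.21, 7.38, 7.30, 7.08 and 7.27 in HD, against 6.75, 6.71, 6.92, 6.93 and 6.92 in LD, and rose 1.32-fold (0.40 ± 0.0611 SE, limma adjusted p = 9.3e-05). Sf3b4, an RNA-binding subunit, rose by 0.36. Its HD replicate 2 (9.11) was well above the other HD arrays (8.79 to 8.84), and without that array the difference was 0.30 (limma adjusted p = 4.6e-05).

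Sf3b1, the scaffold of the complex that encloses the branch point, and its neighbour Sf3b2 were not called. Sf3b1 had 10.89, 10.75, 10.83, 10.81 and 10.96 in HD, against 10.91, 11.03, 10.92, 10.88 and 10.93 in LD, a difference of -0.09 (limma adjusted p = 0.12). Sf3b2 had 10.30, 10.30, 10.28, 10.31 and 10.30 in HD, against 10.33, 10.31, 10.35, 10.30 and 10.35 in LD, the smallest difference of the complex at -0.03 (limma adjusted p = 0.43). After quantile normalization Sf3b1 and Sf3b2 were called lower, by -0.14 and -0.08, and after scaling on control rows by -0.29 and -0.19; Sf3b1 was also called lower without HD replicate 5 (-0.11, limma adjusted p = 0.044). Sf3b3 rose by 0.10 (limma adjusted p = 0.020), lost its call after quantile normalization (0.05) and without LD replicate 1 (0.09), and turned to -0.10 after scaling on control rows.

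Of the SF3A trimer, Sf3a2 rose by 0.25 (0.20 without HD replicate 2, its highest array at 10.52), and after scaling on control rows it differed by 0.10 (limma adjusted p = 0.060). Sf3a3 and Sf3a1 rose by 0.12 and 0.11, each at limma adjusted p = 0.028. Each of these calls was lost under 7 of the 19 alternatives, with limma adjusted p up to 0.24 for Sf3a3 and 0.072 for Sf3a1.

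SR protein genes did not move together. Of 9 tested, 4 were higher (44.4%, against 31.4% of all genes) and 1 lower (11.1%, against 19.5%) in HD. The median log2 difference of 0.06 was close to the 0.055 of all genes. After scaling on control rows 1 was higher and 3 lower with a median of -0.01, where 49.4% of all genes were higher and 19.1% lower. SR rows were brighter than all genes (median level 9.61 in HD against 7.53), which enters these counts. Srsf9 had 9.11, 9.08, 9.17, 9.09 and 9.18 in HD, against 8.87, 8.84, 8.91, 8.95 and 8.99 in LD. The groups did not overlap, and Srsf9 rose by 0.22 (1.16-fold, limma adjusted p = 0.00046), with the same call under all 19 alternatives. Srsf1, the best-studied SR protein and one known to transform cells when overproduced, had 10.86, 10.64, 10.76, 10.71 and 10.83 in HD, against 10.53, 10.58, 10.60, 10.59 and 10.62 in LD. It rose by 0.18 (limma adjusted p = 0.0043), but differed by -0.01 after scaling on control rows. Srsf6 rose by 0.16 and likewise stood at -0.01 under that scaling. Srsf10 rose by 0.14 and differed by 0.11 there, without a call (limma adjusted p = 0.063).

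Srsf5 was the SR protein gene that fell. Its signal was 9.79, 9.33, 9.63, 9.61 and 9.68 in HD, against 9.94, 10.00, 9.91, 9.93 and 9.97 in LD. All HD arrays were below all LD arrays, with HD replicate 2 far below the rest. Srsf5 fell by 0.34 on the log2 scale (1.27-fold, ± 0.0657 SE, limma adjusted p = 0.00064), and by 0.28 without HD replicate 2 (limma adjusted p = 0.00020). Among all genes tested its difference stood at the 5.02 percentile.

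The other SR protein genes were not called. Srsf3 had 9.90, 9.68, 9.70, 9.74 and 9.81 in HD, against 9.74, 9.86, 9.76, 9.75 and 9.79 in LD, and differed by -0.02 (limma adjusted p = 0.77). Srsf2 and Srsf4 each differed by 0.06, and Srsf11 by -0.07 (limma adjusted p = 0.26, 0.18 and 0.13). Srsf11 was called lower after quantile normalization (-0.09) and after scaling on control rows (-0.12), and Srsf3 was called lower under the second of these (-0.12, limma adjusted p = 0.049). Srsf12, below the signal floor, had 5.16, 5.03, 5.10, 4.94 and 5.06 in HD and 4.83, 4.87, 4.94, 4.92 and 4.74 in LD and was not tested.

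The snRNP core (the 5 Sm core genes with the 3 U1 or U2 specific genes) was set against the 9 SR protein genes within each array. Of this core, which leaves out the U1 genes Snrnp70 and Snrpa, 8 of 8 genes were higher in HD (31.4% of all genes were). Their median log2 difference was 0.28. Of the SR proteins, 4 of 9 were higher and the median was 0.06. The mean log2 signal of the core was 8.62, 8.63, 8.60, 8.55 and 8.62 in the HD arrays, against 8.28, 8.33, 8.32, 8.26 and 8.35 in the LD arrays, without overlap. The mean of the SR proteins was 9.82, 9.66, 9.74, 9.73 and 9.78 in HD, against 9.67, 9.72, 9.68, 9.70 and 9.75 in LD, with overlap. Core minus SR proteins was -1.21, -1.03, -1.14, -1.18 and -1.16 in HD, against -1.40, -1.39, -1.36, -1.44 and -1.40 in LD. The sign of this value reflects the probes, since signals of different rows are not on 1 scale; its HD minus LD difference was 0.25, with every HD array above every LD array, and no test is given because it is a score over genes chosen with results known. It was 0.22 without HD replicate 2 and 0.36 after scaling on control rows, where the median log2 difference was 0.29 for the core and -0.01 for the SR proteins. That scaling stretches the log2 values of each array by a factor. The offset between dimmer core rows and brighter SR rows therefore enters the 0.36, which cannot show a larger contrast.

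**Figure D3:**
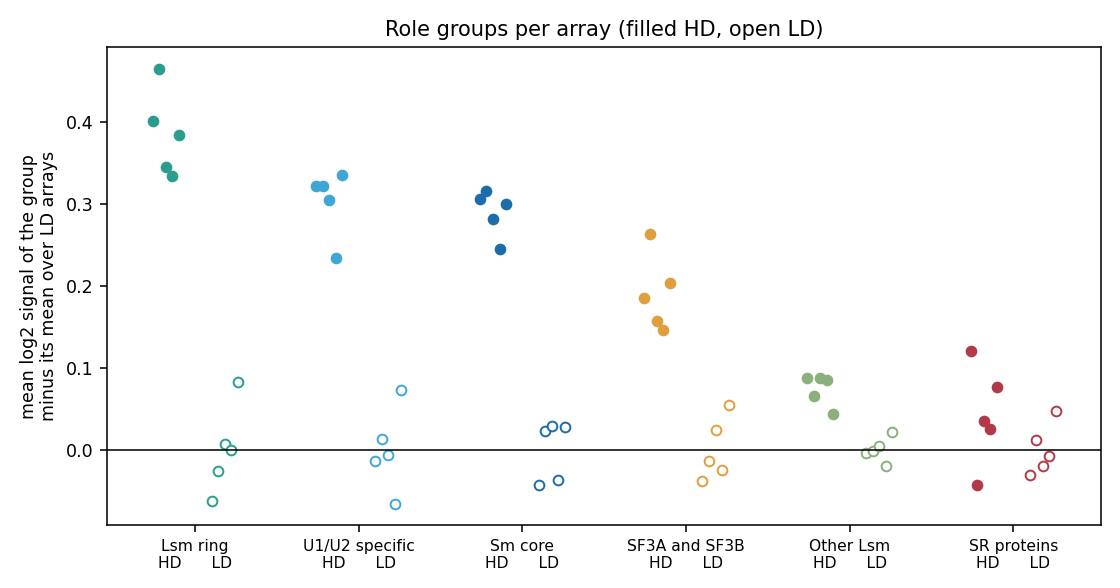
Mean log2 signal of the tested genes of each role in each array, minus the role's mean over the 5 LD arrays, with HD (filled) left of LD (open). HD points lie above all LD points for the Lsm ring, the U1 and U2 specific genes, the Sm core, SF3A and SF3B, and the other Lsm genes, and overlap with LD for the SR proteins.

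Splicing genes with other names were read from the same fit in 9 lists. Of 136 tested genes in these lists, 60 were higher (44.1%, against 31.4% of all genes) and 17 lower (12.5%, against 19.5%) in HD, with a median log2 difference of 0.08 beside 0.055 for all genes. After scaling on control rows 60 were again higher (44.1%), a share below the 49.4% of all genes there. These genes too were brighter than all genes (median level 8.82 in HD against 7.53), which enters that share. As deposited the tri-snRNP list, with other U1 proteins, had 9 of 17 higher (52.9%) and 4 lower (23.5%). Its largest rise was that of Usp39, needed to join the tri-snRNP to the spliceosome, at 9.23 ± 0.0599 in HD and 8.58 ± 0.0625 in LD (SD, n = 5 each), 1.57-fold (limma adjusted p = 7.5e-08). Snrnp40 of the U5 snRNP rose by 0.33. Luc7l3, a U1-associated protein with an arginine-serine domain, fell by 0.35 (limma adjusted p = 0.00010), and its relatives Luc7l2 and Luc7l, named after their values were seen, fell by 0.26 and 0.19.

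Among branch point and 3′ splice site factors 9 of 12 were higher (75%, against 31.4% of all genes) and none lower (19.5% of all genes were), with a median of 0.18. After scaling on control rows 5 were higher and 1 lower, without an excess over the 49.4% of all genes that were higher there. The rows of this list were brighter than all genes (median level 9.76 in HD against 7.53), which enters these counts. Cherp and Ddx46, both partners of the U2 snRNP, each rose by 0.30. Phf5a, a small SF3B subunit that the naming rule leaves out, rose by 0.29 (limma adjusted p = 2.8e-05). Of the minor spliceosome, which removes a rare class of introns, 4 of 8 were higher (50%) and none lower. After quantile normalization or scaling on control rows 7 were higher, where 42.9% and 49.4% of all genes were. Snrnp25 rose by 0.47, Zcrb1 by 0.22 and Zmat5 by 0.20. In the list of Prp19 complex and catalytic step factors 15 of 28 were higher (53.6%) and 2 lower (7.14%). After scaling on control rows 17 were higher and 4 lower, where 49.4% and 19.1% of all genes were. Bud31 rose by 0.54 and Prpf19, the ubiquitin ligase that names the complex, by 0.38, while Cdc40, a factor of the second catalytic step, fell by 0.31.

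The SMN complex loads Sm proteins onto snRNA, and the methylosome prepares them for it. In that list 8 of 14 genes were higher (57.1%, against 31.4% of all genes) and none lower (median 0.22). After scaling on control rows 11 were higher and 1 lower, where 49.4% and 19.1% of all genes were. Strap (also called Unrip), a subunit of the SMN complex, had a mean of 10.26 ± 0.0663 in HD and 9.70 ± 0.0743 in LD (SD, n = 5 each) and rose 1.48-fold (limma adjusted p = 4.0e-07). Gemin5, which recognises snRNA, rose by 0.40 and Gemin6 by 0.38. Prmt5, the methylase of Sm proteins, differed by 0.02 and was not called, but was the 1 lower gene after scaling on control rows (-0.12, limma adjusted p = 0.032); it was named after its value was seen. Of U7 and histone mRNA 3′ end factors 5 of 8 were higher (62.5%, against 31.4% of all genes), and none was called lower except 1 after median centring. Ncbp1 of the nuclear cap-binding complex rose by 0.53, Cpsf2 by 0.38 and Casp8ap2 (FLASH), a partner of Lsm11, by 0.33.

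In the list of SR protein kinases, import and SR-related proteins, 3 of 21 were higher (31.4% of all genes were) and 7 lower (33.3%, against 19.5%), with a median of -0.05. The falls were largest in the kinases. Clk1 had a mean of 8.69 ± 0.114 in HD and 9.02 ± 0.05 in LD (SD, n = 5 each) and fell by 0.34 (limma adjusted p = 0.00011). Clk4 fell by 0.28, and Srpk2 by 0.31 (limma adjusted p = 2.7e-05). Srpk1, named after its value was seen, went the other way and rose by 0.20 (limma adjusted p = 0.00026). Clk enzymes phosphorylate SR proteins in the nucleus and Srpk enzymes mostly in the cytoplasm.

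hnRNP genes, which encode abundant RNA-binding proteins that often oppose SR proteins, had 5 of 20 higher, a share of 25.0% near the 31.4% of all genes, and 1 lower, with a median of 0.04 near the 0.055 of all genes. Hnrnpab rose by 0.31, Syncrip by 0.22 and Hnrnph2 by 0.14. After scaling on control rows 1 hnRNP gene was higher and 9 lower, with Hnrnpab at 0.04 and Syncrip at 0.09 and neither called. The hnRNP rows were bright (median level 10.39 in HD), and that scaling lowers HD minus LD in bright rows. Without HD replicate 2, 8 were higher and none lower. Of the mRNA decay partners of the Lsm1 ring 2 of 8 were higher (25.0%, against 31.4% of all genes) and 3 lower (37.5%, against 19.5%), with a median of -0.03. Patl1, which binds the ring, and Eif4enif1, both named after their values were seen, rose by 0.14 and 0.11; Eif4enif1 lost its call after scaling on control rows (0.06). Xrn1, the 5′ exonuclease, fell by 0.25, and Dcp1b and Dcp2 of the decapping enzyme by 0.19 and 0.15. Dcp1b lost its call after scaling on control rows (-0.06).

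**Figure D4:**
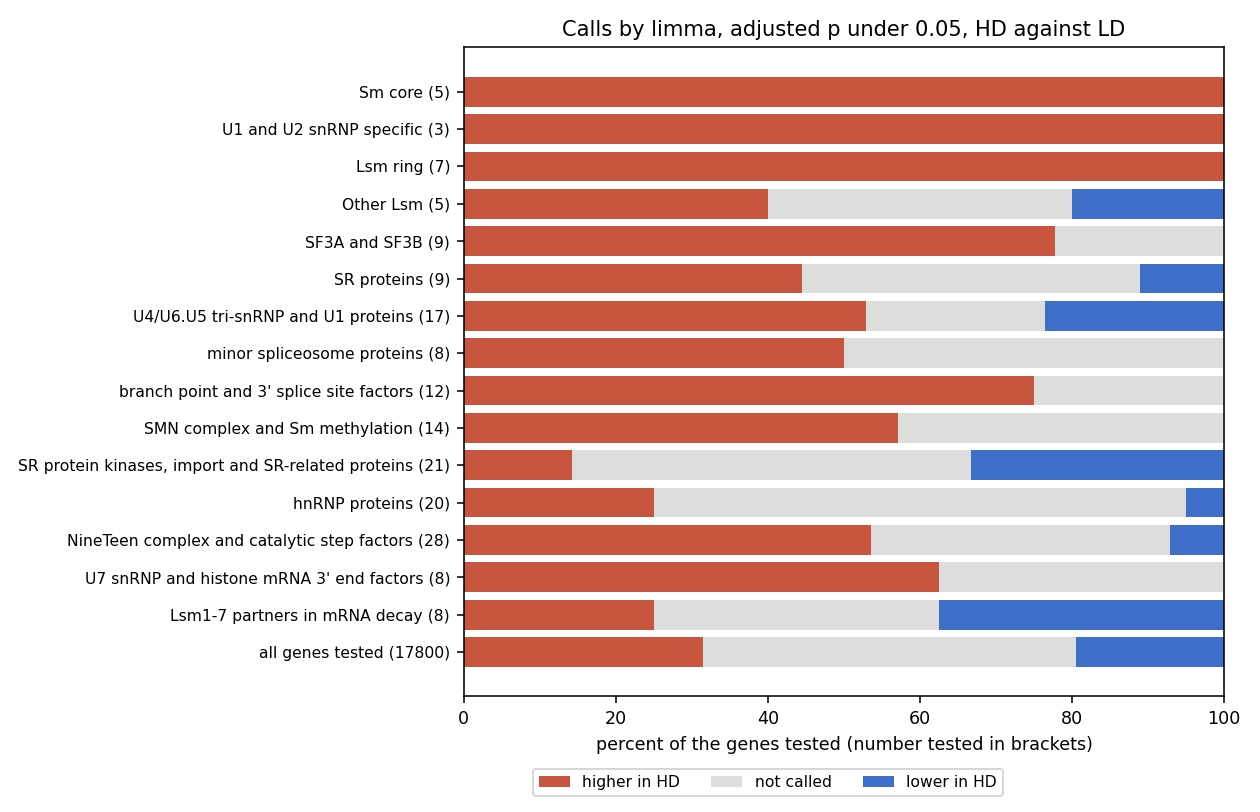
Percent of the tested genes of each role and each related list that limma called higher (red), lower (blue) or not (grey) in HD at an adjusted p under 0.05, with all 17800 genes tested in the bottom bar (31.4% higher and 19.5% lower). The Sm core, U1 and U2 specific and Lsm ring bars are wholly red, and lower calls take the largest shares in the mRNA decay list (3 of 8) and the SR kinase list (7 of 21).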

How the data were processed

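Affymetrix MTA 1.0 arrays of 5 HD and 5 LD samples were analysed from the deposited table of log2 values, 1 per row and array, produced by the authors with RMA (submitters' processing notes). RMA corrects background, equalises arrays and summarises probes, and it compresses folds. The version of that software was not given in the sources used here, nor was a build. That values are log2 was taken from their range. Scanner files and scan dates were not used here, which leaves batches unexamined. The number of arrays limits the precision.

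Rows were named from the platform annotation (30604 rows with 1 symbol, 30142 symbols), and all 41 gene IDs of the set matched RefSeq (GRCm38.p6). Each gene was its row with the highest mean, tested if above the median of all 72688 rows (log2 5.24), which left 17800 genes. HD was compared with LD by limma's moderated test (version 3.58.1 under R 4.3.3), two-sided, Benjamini-Hochberg adjusted over all genes tested, at 0.05. Differences are HD minus LD, folds are the brighter group over the dimmer, and each error is named as SD (5 arrays) or moderated SE. The script was tested on simulated data. The genes, roles, lists, motifs and alternatives were chosen with earlier results of these data known. Named genes were all genes of the set, with array values for those of a role with the largest called changes (2 in each direction) and the smallest change; from each list up to 3 called genes with the largest change; and genes said to be named after their values were seen. Control-row scaling placed each array linearly on the medians of its 5222 negative and 1324 positive control rows; their group medians were 5.42 in HD and 5.67 in LD for negative rows, and 9.28 in HD and 9.21 in LD for positive rows. Through these medians the scaling lowers HD minus LD in bright rows and raises it in dim rows. Counts after it therefore depend on signal level. Same-numbered arrays of both groups had correlated deviations of -0.091 to 0.22, which gave no reason to pair them.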

Additional observations from a re-analysis of the deposited data

Results flagged for a closer look

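Within a group of 5 arrays, 1 array stood apart from the other 4 (a gap of more than 0.71 of the group's range) in 8 of 80 sets of values examined; about 1 in 20 would do so by chance. HD replicate 2 was that array for 4 genes: Lsm7 at 9.83 (other HD arrays 9.53 to 9.59), Sf3b4 at 9.11 (8.79 to 8.84), Sf3a2 at 10.52 (10.26 to 10.29) and Lsm14a at 9.31 (9.44 to 9.49). Without this array the log2 differences were 0.41, 0.30, 0.20 and -0.08. The other such arrays were Snrpd3 at 10.58 in HD replicate 1 (others 10.47 to 10.50), Lsm6 at 8.54 in HD replicate 5 (8.55 to 8.56), Snrpa1 at 8.39 in LD replicate 5 (8.26 to 8.29) and Lsm5 at 5.53 in LD replicate 1 (5.67 to 5.71).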

How the results depend on the processing

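Of the 39 tested genes, 25 kept their direction and their side of the threshold under all of the 19 alternatives that tested them. No such share over all genes is given here, so this count cannot be set against other genes. As deposited, 28 genes were higher and 2 lower. The higher count was 21 to 28 over all alternatives, lowest after scaling on control rows (53.8% of these genes, near the 49.4% of all genes there), and 26 to 28 when single arrays were left out. The lower count was 5 after quantile normalization, 6 after scaling on control rows and 1 without the filter on dim rows, and 1 to 3 when single arrays were left out. Core minus SR proteins was 0.25. After scaling on control rows it was 0.36, a value that the offset between the rows enters. Leaving out single arrays gave 0.22 to 0.27 for core minus SR proteins, 7767 to 9050 calls over all genes, and 55 to 63 higher genes in the related lists (60 with all arrays). Srsf1 turned to -0.0081, Srsf6 to -0.013 and Sf3b3 to -0.10 after scaling on control rows. That scaling by its arithmetic lowers HD minus LD in bright rows. The rows of these genes were bright, with mean log2 signals of 10.67, 10.54 and 10.81. How much of each turn this makes up was not tested. With the replicate block the counts were 27 higher and 2 lower, Sf3a1 losing its call (limma adjusted p = 0.061). The level of the negative control rows limits Lsm5, whose LD mean (5.66) was at their median (5.67). The array's background rows were lower, with a median of 3.47 in LD.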

Other observations

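Rows that share their name with another symbol were outside the rule. They are given here from a fit over all 72688 rows, so their adjusted p-values are not those of the gene fit. The row of Snrpd1, a core Sm protein, and Gm14277 was 8.30 ± 0.0711 in HD and 7.87 ± 0.0629 in LD (SD, n = 5 each), higher by 0.43 (limma adjusted p = 0.00014). The row of Snrpd2, its partner in the ring, and Gm5848 was 9.89 ± 0.0597 in HD and 9.50 ± 0.0633 in LD, higher by 0.39 (limma adjusted p = 0.00018). The row of Lsm8 and Naa38 was 8.54 ± 0.105 in HD and 8.17 ± 0.0713 in LD, higher by 0.37 (limma adjusted p = 0.0010). The row of Naa38 and Lsmd1 was 8.38 ± 0.138 in HD and 7.97 ± 0.067 in LD, higher by 0.42 (limma adjusted p = 0.0012). The row of Snrpn and Snurf differed by 0.16 (limma adjusted p = 0.025). The row of Snrpa, the A protein of U1, and its copies was 9.68 ± 0.0761 in HD and 9.69 ± 0.00967 in LD and was not called (limma adjusted p = 0.97).

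The RNAs that these proteins bind were looked at after seeing the data. In 10 single-symbol rows of spliceosomal small nuclear RNAs (U1, U2, U5, U6, U11 and U12 genes), HD minus LD ran from -0.03 to 0.099 on the log2 scale. With limma 0 were called over all rows, where 21.1% of all rows were, and 0 had an unadjusted p under 0.05. The copies are near-identical, so rows of single genes are uncertain. The brightest, Rnu1a1, was 12.34 ± 0.077 in HD and 12.32 ± 0.0492 in LD (SD, n = 5 each).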
